A study of Mus musculus with 24 samples.

Results

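The comparison is of methionine restriction in grafts carried by NSG hosts. Its members are 12 of the 24 RNA libraries of the series, chosen by host alone. In 6 of them the host was fed a diet with 0.172% methionine, labelled methionine deficient, and in the other 6 a high methionine diet with 0.86%. All 12 tumours came from CT26.WT, a carcinoma line raised from the colon of a Balb/c mouse. It was grafted into NSG mice, labelled male, that had their diet for 3 to 4 weeks. NSG mice lack T, B and NK cells, so these grafts grew without adaptive immunity. Macrophages, fibroblasts and vessels of the host remain, and host and graft reads cannot be parted. The labels give the genotype as wild-type and no age. The other 12 libraries are grafts in Balb/c hosts on the same diets and serve here only to ask whether the diet difference depended on the host. Tumours are called by their label numbers, 1 to 6 for 0.172% and 7 to 12 for 0.86% methionine.

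Methionine starts nearly every protein and is activated to S-adenosylmethionine, the methyl donor for DNA, RNA, histones and phospholipids. The homocysteine left over is either methylated back to methionine, with folate carrying the methyl group, or passed through transsulfuration to cysteine and glutathione. A shortage of amino acids makes the kinase GCN2 block general translation start, while the transcription factor ATF4 is translated more and induces transporters, synthetic enzymes and stress genes. A salvage pathway recycles methionine from the by-product of polyamine synthesis. Methionine metabolism, ATF4 targets and methylation enzymes are therefore the groups described first, and mitochondria, lipids, growth and host cells follow.

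The NSG libraries held 35937162 to 51729669 assigned counts, and 25889 to 27322 genes had at least 1 count. Assigned counts did not separate the diets (exact permutation p = 0.714, two-sided, adjusted p = 0.714). Genes detected numbered 26497 ± 468 in 0.172% and 27022.5 ± 355 in 0.86% tumours (SD, n = 6 each), a difference of -525.5 (exact permutation p = 0.0519, adjusted p = 0.113). The defining colon markers of the label were partly absent. Of 16 epithelial markers, Cdx1 had 0 counts in all 12 tumours, Vil1 at most 2.78 normalised counts, and Epcam a mean of 3.35 ± 7.71 in 0.172% tumours and 25.9 ± 30.9 in 0.86% tumours (SD, n = 6 each), while Krt8, Krt18 and Krt20 were expressed. The label also gives male mice, yet 4 Y-linked genes (Ddx3y, Eif2s3y, Kdm5d and Uty) together had 14 counts in the 0.172% and 7 counts in the 0.86% tumours. These counts do not bear out the labelled sex, and the reason was not tested. Tumour 2, on 0.172%, stood apart from the others. Its mean correlation with the other 11 tumours over 11472 genes was 0.968, against 0.976 to 0.985 for each of those.

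The 11472 genes with a mean deposited log2 value of at least 8 over the NSG tumours are called expressed below. Their median absolute difference between 0.172% and 0.86% tumours was 0.09 on the deposited log2 scale. This lay below the median SD between tumours of either diet, given later in this paragraph. The median standard error of the diet difference was 0.11. Estimates lay above 0 for 6104 of these genes, or 53.2%, and the median difference was 0.01. Of the expressed genes, 3 differed by more than 1 on that scale, 1 higher and 2 lower. The spread itself was larger on the restricted diet. The SD among 0.172% tumours exceeded that among 0.86% tumours for 7857 of 11472 genes, with medians of 0.16 in 0.172% and 0.13 in 0.86% tumours. Pairs of 0.172% tumours correlated at 0.958 to 0.991, pairs of 0.86% tumours at 0.977 to 0.992, and mixed pairs at 0.964 to 0.992. The lowest restricted pair was tumours 2 and 4, and restricted pairs without tumour 2 correlated at 0.974 to 0.991. The SDs are not given without tumour 2, so its part in the larger spread was not tested. These are descriptions across genes, which are not independent.

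Limma called 2 of 38019 genes for diet at an adjusted p under 0.05, which is 0.00526% of those tested, and both fell on the restricted diet. Gm34719, a long noncoding RNA, had 8.09 to 14.9 normalised counts (reads recovered from the deposited values, divided by the size factor of the library) in 0.172% tumours (median 13.1), against 23.6 to 42.0 in 0.86% tumours (median 37.7). The groups did not overlap, with tumour 4 lowest and tumour 8 highest. Acox2, a peroxisomal oxidase of branched-chain fatty acids and bile acid intermediates, had 0 counts in all 6 restricted tumours and 1 to 3 counts in each 0.86% tumour, which is too few for a fold. Limma gave both an adjusted p of 0.036, with differences of -0.71 ± 0.11 and -0.46 ± 0.07 on the deposited log2 scale (SE). The 6 restricted values of Acox2 all sit at the value for a count of 0, so they show no spread. The SE and p of Acox2 therefore do not measure the noise of counting. With single NSG tumours left out in turn, Gm34719 lost its call in 11 of 12 fits and Acox2 in 10 of 12, with limma adjusted p of up to 0.129 for both. Over every alternative run, the adjusted p was 0.00907 to 0.132 for Gm34719 and 0.0113 to 0.219 for Acox2. At unadjusted p under 0.05 there were 2554 genes, 6.72% of those tested. A fit of the 12 NSG tumours alone, without the Balb/c libraries, called 10 genes (0.0263%), 4 higher (0.0105%) and 6 lower (0.0158%), and both of the above were among the 6.

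Gm34719 lies on the minus strand of mouse chromosome 12 at 110046686 to 110086423 (mm10), between Mirg and Dio3 of the imprinted Dlk1-Dio3 region. None of its neighbours was called. Gm47188, an unclassified transcript on the plus strand at 110083820 to 110085180, lies inside its span. It had 0 to 3.03 normalised counts in 0.172% tumours (median 0.447), against 2.78 to 11.6 in 0.86% tumours (median 7.14), a difference of -0.65 ± 0.14 (limma unadjusted p = 6.2e-05, adjusted p = 0.328). Tumour 4 lay within the 0.86% range and the other restricted tumours below it. The strand setting of the counting is not given in the sources used here, so reads of the 2 transcripts cannot be told apart. The maternally expressed noncoding RNAs Meg3, Rian and Mirg averaged 170, 184 and 18.8 normalised counts in 0.172% tumours, against 173, 164 and 13.3 in 0.86% tumours. Dio3, which inactivates thyroid hormone, averaged 80.5 ± 45.2 in 0.172% and 63.8 ± 29.1 in 0.86% tumours, and Dlk1, a Notch-related ligand, 33.3 ± 43.8 in 0.172% and 12.8 ± 14.8 in 0.86% tumours (SD, n = 6 each). The unadjusted limma p of Meg3, Rian, Mirg, Dio3 and Dlk1 was 0.328 or more. All 6 were chosen after their values were seen. Meg3 varied widely between tumours of 1 diet, from 24.9 to 341 in 0.172% tumours and 27.8 to 287 in 0.86% tumours.

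**Figure D1:**
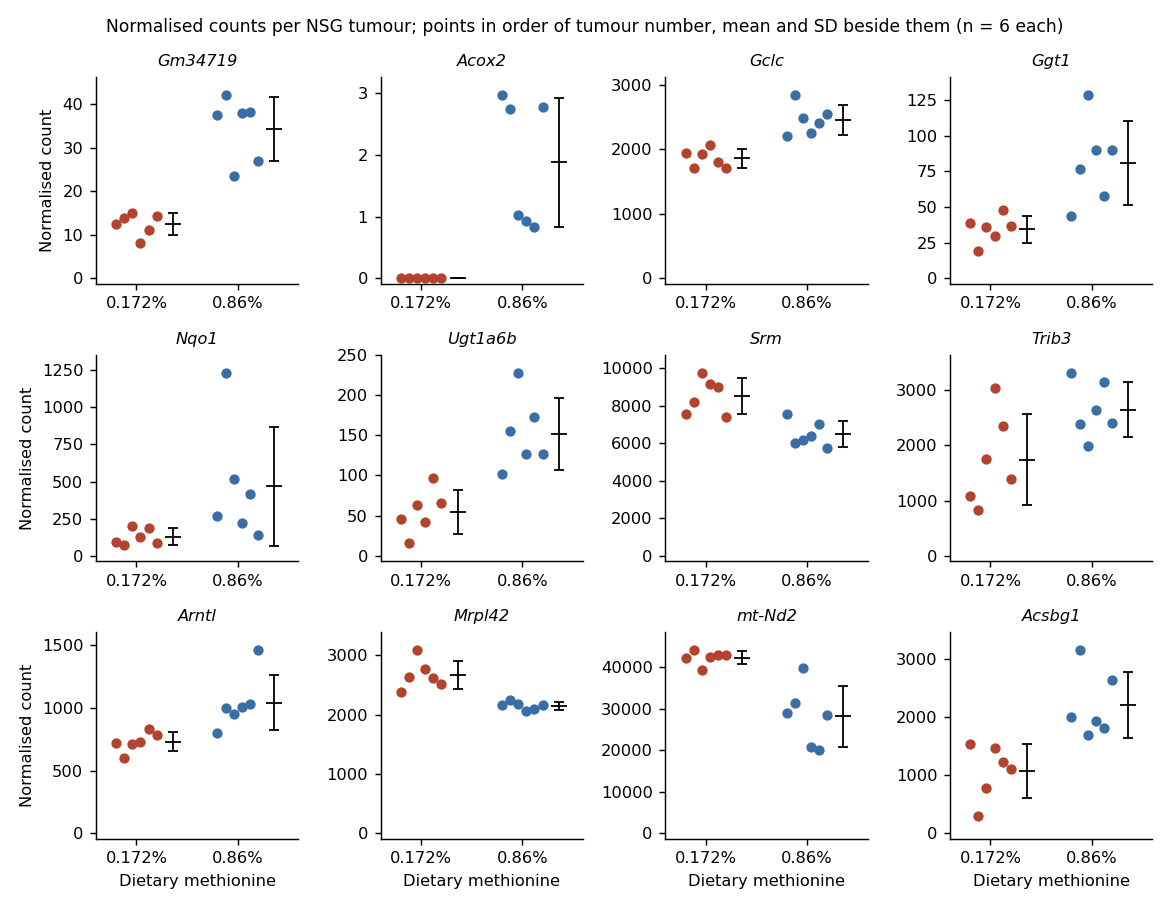
Normalised counts of 12 genes in each NSG tumour, with 0.172% methionine on the left and 0.86% on the right of each panel; bars are the mean and SD of 6 tumours. Gm34719, Acox2, Gclc, Ugt1a6b, Mrpl42 and Acsbg1 have no overlap between diets, while Trib3 spans 832 to 3045 on the restricted diet.

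Below the call threshold, all 6 tumours of one diet lay above all 6 of the other for 178 of the 11472 expressed genes, or 1.55%. Of these, 140 were higher in every 0.172% tumour (1.22% of expressed genes) and 38 lower (0.331%). Their differences ran from 0.75 to -1.14 with a median absolute size of 0.26, and none of the 178 was called. The smallest limma adjusted p among expressed genes was that of Dhrs13, 0.323. Dhrs13, a short-chain dehydrogenase, averaged 436 ± 60.4 normalised counts in 0.172% tumours and 298 ± 38.1 in 0.86% tumours, a difference of 0.50 ± 0.10. Hikeshi, which carries HSP70 into the nucleus, averaged 1006 ± 48.4 in 0.172% and 758 ± 82.9 in 0.86% tumours, a difference of 0.40 ± 0.08. Psmg1, a proteasome assembly chaperone, averaged 858 ± 186 in 0.172% and 589 ± 33.7 in 0.86% tumours. Tufm, the mitochondrial elongation factor, averaged 2901 ± 371 in 0.172% and 2247 ± 172 in 0.86% tumours (SD, n = 6 each throughout).

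Among the same highest-ranked genes, Pcdh18, a protocadherin, had 1744 to 3381 normalised counts in 0.172% tumours (median 2049), against 1116 to 1526 in 0.86% tumours (median 1217). The highest value, 3381, was that of tumour 2. Entpd6, a nucleotidase, averaged 696 in 0.172% and 514 in 0.86% tumours, and Faap24, a Fanconi anaemia protein, 842 in 0.172% and 613 in 0.86% tumours. Eif4a1, the translation helicase, averaged 33560 ± 2187 in 0.172% and 27649 ± 609 in 0.86% tumours, and its processed copy Eif4a-ps4 13729 in 0.172% and 11192 in 0.86% tumours, so their reads may be shared. The 8 genes with the highest moderated t had limma adjusted p of 0.323 to 0.328, and in each of them every 0.172% tumour was higher.

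The lowest-ranked genes were led by Gclc, the catalytic subunit of the first enzyme of glutathione synthesis. It had 1707 to 2072 normalised counts in 0.172% tumours (median 1869), against 2202 to 2837 in 0.86% tumours (median 2454), a difference of -0.39 ± 0.09 with an adjusted p of 0.328 by limma. Gramd1b, a cholesterol transporter at membrane contacts, averaged 486 ± 120 in 0.172% and 828 ± 175 in 0.86% tumours, and Ttc33, a protein of little known function, 793 ± 48.3 in 0.172% and 1003 ± 93.0 in 0.86% tumours. Cr1l, a complement regulator whose pseudogene copy Crry-ps can share its reads, averaged 2036 in 0.172% and 2547 in 0.86% tumours. These 4 had no overlap between diets. Cirbp, a cold-inducible RNA-binding protein, averaged 876 ± 74.4 in 0.172% and 1340 ± 275 in 0.86% tumours, and Angptl6, an angiopoietin-like secreted protein, 417 ± 180 in 0.172% and 712 ± 90.6 in 0.86% tumours. Lhfpl2 averaged 1771 in 0.172% and 2225 in 0.86% tumours and Plekhm3 448 in 0.172% and 602 in 0.86% tumours, and the diet groups of these last 4 overlapped.

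**Figure D2:**
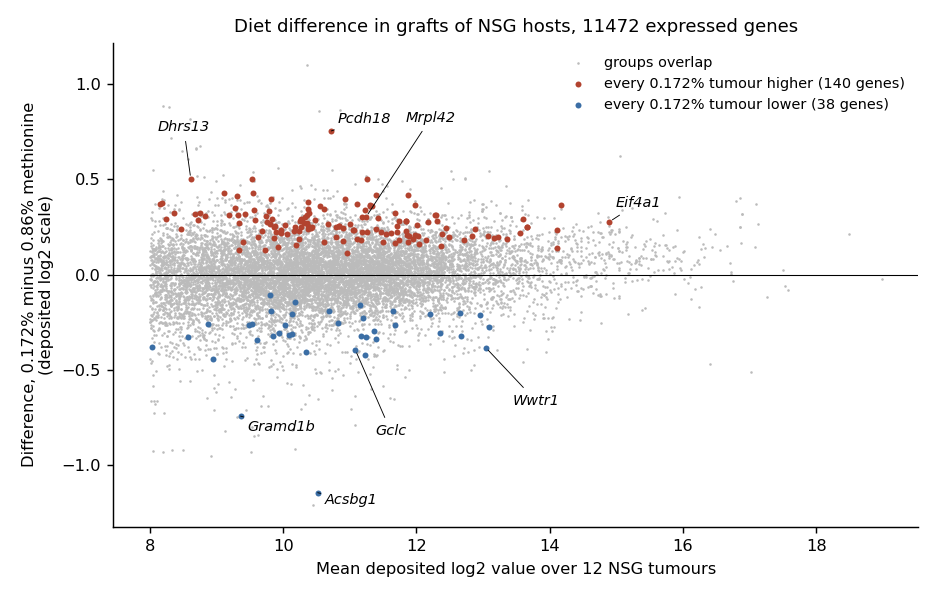
Difference between 0.172% and 0.86% methionine on the deposited log2 scale against the mean level, for 11472 expressed genes. Red points are the 140 genes with every 0.172% tumour higher and blue points the 38 with every 0.172% tumour lower; none of them passed limma's adjusted threshold.

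No member of the methionine cycle list was called. Of its 15 expressed genes 11 had estimates above 0, with a median of 0.06 against 0.01 over all expressed genes. The median ran from 0.02 (without tumour 9) to 0.10 (without tumour 7). Mat2a, which makes S-adenosylmethionine, averaged 9654 ± 1093 normalised counts in 0.172% tumours and 10257 ± 1392 in 0.86% tumours, and Ahcy, which clears its by-product, 10309 ± 1380 in 0.172% and 9363 ± 728 in 0.86% tumours. Mtr, which remethylates homocysteine, averaged 972 ± 165 in 0.172% and 938 ± 111 in 0.86% tumours. The diet groups overlapped for all 3. The 2 members at unadjusted p under 0.05 belong to folate metabolism and were higher. Shmt1, which loads a carbon onto folate, averaged 1666 in 0.172% and 1398 in 0.86% tumours, and Mthfd1, which interconverts folate forms, 4743 in 0.172% and 4173 in 0.86% tumours, with unadjusted limma p of 0.0148 for Shmt1 and 0.0294 for Mthfd1. Over all expressed genes, 6.64% were higher and 3.18% lower at that unadjusted level, the shares to set beside the counts of every list below. Fpgs, which traps folates in the cell, lay apart at 914 to 1071 in 0.172% and 811 to 852 in 0.86% tumours and was chosen after its values were seen.

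In the salvage and polyamine list, 3 of 16 expressed members reached an unadjusted limma p under 0.05, all higher, and 0 were called. Of all expressed genes, 6.64% were higher at that level. Srm, spermidine synthase, had 7394 to 9761 normalised counts in 0.172% tumours (median 8605), against 5754 to 7558 in 0.86% tumours (median 6278). Restricted tumours 1 and 6 lay just below tumour 7 of the 0.86% group, and all others of the restricted diet above it. The difference was 0.39 ± 0.10 (limma adjusted p = 0.328). Adi1 and Apip, enzymes of the salvage steps that rebuild methionine, averaged 865 ± 112 and 425 ± 51.5 in 0.172% tumours, against 716 ± 73.7 and 350 ± 30.6 in 0.86% tumours. Mtap, the entry enzyme of salvage, averaged 11237 ± 1406 in 0.172% and 11770 ± 1006 in 0.86% tumours. Odc1, the first polyamine enzyme, averaged 20172 ± 7825 in 0.172% and 17994 ± 1446 in 0.86% tumours, and the wide restricted spread came from tumour 4 at 34775. The median over the list was 0.07, and 0.0060 without tumour 4.

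Transsulfuration proper was barely expressed in these grafts. Cbs and Cth, its 2 enzymes, averaged 1.08 and 2.60 normalised counts in 0.172% tumours, against 2.03 and 3.88 in 0.86% tumours. Downstream, Gclc was the 1 expressed member of 12 at unadjusted p under 0.05, while its partner Gclm averaged 2258 ± 507 in 0.172% and 2267 ± 247 in 0.86% tumours. The Gclm difference was -0.02, and -0.13 without tumour 2, which held 3276. Gclm lies at 122245557 on chromosome 3, in the 120 to 130 Mb stretch over which tumour 2 stood 0.61 above the others, and the part of that stretch was not tested. Gss, which completes glutathione, averaged 963 ± 194 in 0.172% and 826 ± 70.2 in 0.86% tumours. Ggt1, which splits extracellular glutathione, lay below the expression threshold at 34.5 ± 9.46 in 0.172% and 81.0 ± 29.5 in 0.86% tumours, a difference of -0.79 ± 0.18 (limma unadjusted p = 0.000181, adjusted p = 0.328). Restricted tumours ran from 19.4 to 47.6 and 0.86% tumours from 43.4 to 128, so the groups overlapped in a narrow band. Ggct, which recycles glutathione products, averaged 142 ± 24.2 in 0.172% and 109 ± 9.65 in 0.86% tumours.

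Amino acid transporters had 9 of 12 expressed estimates below 0, with a median of -0.12. Slc7a5, the main importer of methionine and other large neutral amino acids, averaged 13019 ± 2244 in 0.172% and 12418 ± 2238 in 0.86% tumours, and Slc43a2, a further methionine carrier, 492 ± 126 in 0.172% and 556 ± 182 in 0.86% tumours. Slc38a2, a sodium-coupled neutral amino acid carrier, was the 1 member at unadjusted p under 0.05, with 18551 ± 1687 in 0.172% and 21815 ± 2326 in 0.86% tumours. Leaving out tumour 12 brought the median of the list to -0.04.

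Of the enzymes that consume S-adenosylmethionine, 21 of 26 histone and protein methyltransferases had estimates above 0, with a median of 0.06, which ran from 0.03 (without tumour 1) to 0.09 (without tumour 7). Prmt1, the main arginine methyltransferase, had 8501 to 10094 normalised counts in 0.172% tumours, all above the 7370 to 8414 of 0.86% tumours, at an adjusted p of 0.638 by limma. Prmt5 and Carm1, also arginine methyltransferases, were the other 2 members at unadjusted p under 0.05 and averaged 2809 and 2634 in 0.172% tumours, against 2505 and 2312 in 0.86% tumours. The lysine methyltransferase Ezh2 averaged 2901 ± 510 in 0.172% and 2763 ± 261 in 0.86% tumours. DNA methylation genes split evenly, 5 above and 5 below 0, and Dnmt1, the maintenance enzyme, averaged 6875 ± 1161 in 0.172% and 6368 ± 1096 in 0.86% tumours. Of 18 expressed genes of RNA m6A methylation, 9 were above 0. Mettl16, which methylates the Mat2a transcript and thereby sets S-adenosylmethionine synthesis, averaged 1841 ± 230 in 0.172% and 1464 ± 135 in 0.86% tumours, a difference of 0.32 ± 0.08 (limma adjusted p = 0.358). Igf2bp1, a reader of the mark, averaged 577 ± 98.2 in 0.172% and 404 ± 85.4 in 0.86% tumours, a difference of 0.49 ± 0.18, with groups that overlapped.

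No gene induced by ATF4 was called. Of 32 expressed members 20 had estimates below 0, with a median of -0.12. At unadjusted limma p under 0.05, 7 were lower and 1 higher, where 3.18% of all expressed genes were lower and 6.64% higher. Leaving out 1 tumour at a time moved that median between -0.18 (without tumour 5) and -0.05 (without tumour 2). Trib3, a pseudokinase that feeds back on ATF4, had 832 to 3045 normalised counts in 0.172% tumours (median 1576), against 1986 to 3314 in 0.86% tumours (median 2526). Tumours 1, 2, 3 and 6 lay below every 0.86% tumour, and tumours 4 and 5 within their range. The difference was -0.70 ± 0.23 (limma adjusted p = 0.612). Ddit3, the CHOP transcription factor, averaged 2157 ± 635 in 0.172% and 3017 ± 496 in 0.86% tumours, Ddit4, an inhibitor of mTORC1, 1371 ± 250 in 0.172% and 1995 ± 571 in 0.86% tumours, and Sesn2, a sensor of leucine, 1520 ± 301 in 0.172% and 1842 ± 257 in 0.86% tumours. Asns, asparagine synthetase and a standard marker of amino acid shortage, had 10575 to 19489 in 0.172% tumours and 10627 to 15878 in 0.86% tumours. The ranges started at nearly the same level and the restricted one reached higher. Leaving out 1 tumour at a time kept its difference between 0.01 and 0.19. Atf4 itself averaged 19170 ± 3748 in 0.172% and 20629 ± 2768 in 0.86% tumours. Psat1, of serine synthesis, was the 1 member higher at that level, at 17360 ± 3927 in 0.172% and 14024 ± 2631 in 0.86% tumours.

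The Trib3 and Asns promoters are shown because both carry the letters of the composite element that ATF4 binds with C/EBP proteins, searched as TGATGNAAN on both strands. The sequences are from RefSeq on GRCm38.p6, cover 250 bases before to 50 after the gene start, run 5′ to 3′ on the gene's strand, and have the match in capitals.
Trib3: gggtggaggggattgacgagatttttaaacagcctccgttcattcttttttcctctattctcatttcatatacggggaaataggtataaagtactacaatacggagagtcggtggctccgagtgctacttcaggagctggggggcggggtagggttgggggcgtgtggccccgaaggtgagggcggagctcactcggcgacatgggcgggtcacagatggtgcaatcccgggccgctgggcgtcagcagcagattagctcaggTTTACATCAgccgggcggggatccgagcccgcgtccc
Asns: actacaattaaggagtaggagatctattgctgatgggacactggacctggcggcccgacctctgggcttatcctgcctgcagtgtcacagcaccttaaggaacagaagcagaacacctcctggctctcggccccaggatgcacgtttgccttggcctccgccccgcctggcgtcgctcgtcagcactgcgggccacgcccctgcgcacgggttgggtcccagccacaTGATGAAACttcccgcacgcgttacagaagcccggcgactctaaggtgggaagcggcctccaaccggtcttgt
The Trib3 window is chr2:152344011-152344310 and the Asns window chr6:7693160-7693459, both on the minus strand. In Trib3 the match lies at bases 264 to 272 of 300 and reads on the opposite strand, and in Asns it lies at bases 228 to 236 on the gene's strand. The motif was in 11 of 41 promoters of the ATF4 list, or 26.8%, and in 3.95% of 32851 mouse promoters. A match describes letters and not binding.

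Other arms of the stress response gave small differences. Aminoacyl-tRNA synthetases, which load amino acids onto tRNA, had 13 of 20 estimates above 0 and a median of 0.07, which was -0.0047 without tumour 4 and 0.10 without tumour 7, with Farsa at 3008 ± 298 in 0.172% and 2678 ± 147 in 0.86% tumours and Kars at 9620 ± 659 in 0.172% and 8583 ± 602 in 0.86% tumours. Chaperones of the endoplasmic reticulum had a median of 0.04, which ran from -0.01 (without tumour 3) to 0.11 (without tumour 2), with Pdia6, a disulfide isomerase, at 13910 in 0.172% and 12149 in 0.86% tumours and Dnajb9, a stress-induced cochaperone, at 1193 in 0.172% and 1475 in 0.86% tumours. Of 11 heat shock genes 3 were higher at unadjusted limma p under 0.05, where 6.64% of all expressed genes were. Hspa8, the constitutive HSP70, averaged 98400 ± 6990 in 0.172% and 84870 ± 6237 in 0.86% tumours, and Hspe1, the mitochondrial cochaperonin, 7283 ± 250 in 0.172% and 6252 ± 543 in 0.86% tumours. Hsp90ab1 averaged 126521 ± 5535 in 0.172% and 112698 ± 5499 in 0.86% tumours, a difference of 0.17, which was -0.05 after quantile normalisation.

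Antioxidant genes driven by NRF2, the regulator that responds to electrophiles and oxidants, had estimates of both signs. Of 22 expressed members 10 had estimates above 0 and 12 below, with a median of -0.01, which ran from -0.04 (without tumour 2) to 0.01 (without tumour 8). Nqo1, a quinone reductase that stands as a textbook NRF2 target, lay just below the expression threshold, so it is not among the 22. It had 71.0 to 204 normalised counts in 0.172% tumours (median 111), against 143 to 1232 in 0.86% tumours (median 344). The difference was -1.40 ± 0.45 (limma unadjusted p = 0.00564, adjusted p = 0.612), and leaving out 1 tumour at a time kept it between -1.64 and -1.07. Tumour 8 held the highest value. Ugt1a6b, a glucuronosyltransferase whose exons are partly shared with the other Ugt1a genes, had 15.7 to 97.0 in 0.172% tumours and 102 to 228 in 0.86% tumours, without overlap, a difference of -1.17 ± 0.25 (adjusted p = 0.328 by limma). It was chosen after its values were seen. Hmox1, heme oxygenase, averaged 3681 ± 843 in 0.172% and 3057 ± 1047 in 0.86% tumours, and Txnrd1, thioredoxin reductase, 6535 ± 760 in 0.172% and 7080 ± 539 in 0.86% tumours. Slc7a11, the cystine importer, averaged 5140 ± 700 in 0.172% and 5093 ± 414 in 0.86% tumours.

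No gene of the lipid lists was called other than Acox2. Sterol synthesis genes had 15 of 20 estimates below 0 and a median of -0.11. At unadjusted limma p under 0.05, 3 members were lower, where 3.18% of all expressed genes were. The median was -0.03 without tumour 8. Hsd17b7, a late enzyme of the pathway, averaged 308 ± 52.1 in 0.172% and 429 ± 48.9 in 0.86% tumours, and Insig1, the brake on SREBP processing, 1441 ± 221 in 0.172% and 1914 ± 528 in 0.86% tumours. Hmgcs1, an early enzyme of the pathway, averaged 2500 ± 531 in 0.172% and 2829 ± 430 in 0.86% tumours. Fasn, fatty acid synthase, was on the other side at 9533 ± 783 in 0.172% and 7497 ± 1135 in 0.86% tumours, a difference of 0.35 ± 0.11 (limma adjusted p = 0.496). The whole fatty acid synthesis list had 8 of 14 estimates above 0 and a median of 0.02, which was -0.03 without tumour 2, and fatty acid uptake and oxidation 12 of 18 and a median of 0.03, which was -0.02 without tumour 2. Of the 178 genes that lay apart, the largest difference was that of Acsbg1, an acyl-CoA synthetase of long-chain fatty acids. It had 305 to 1539 in 0.172% tumours (median 1166) and 1684 to 3140 in 0.86% tumours (median 1962), a difference of -1.14 ± 0.36 (adjusted p = 0.603 by limma). Acsl4, which feeds polyunsaturated fatty acids into phospholipids, Phyh, a peroxisomal hydroxylase, and Pex19, a peroxisome assembly factor, also lay apart and lower. They stood at 2360, 853 and 1512 in 0.172% tumours, against 2904, 1057 and 1725 in 0.86% tumours. These 4 were chosen after their values were seen.

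Circadian clock and immediate early genes had mostly negative estimates, 11 of 14 and 13 of 15 expressed members, with medians of -0.08 for the clock and -0.11 for immediate early genes. With 1 tumour left out, the clock median ran from -0.17 (without tumour 1) to -0.04 (without tumour 7), and that of immediate early genes from -0.25 (without tumour 4) to -0.01 (without tumour 2). Arntl, the BMAL1 activator of the clock, averaged 731 ± 76.3 in 0.172% and 1043 ± 220 in 0.86% tumours, and Per1, a repressor, 3245 ± 767 in 0.172% and 4527 ± 784 in 0.86% tumours. Egr2 and Dusp1, which respond within minutes to growth factors, averaged 239 ± 75.3 and 655 ± 167 in 0.172% tumours, against 341 ± 62.4 and 924.5 ± 276 in 0.86% tumours. These 4 reached an unadjusted limma p between 0.0272 and 0.0451 and an adjusted p of 0.737 or more. The labels give no time of day or handling time, so its part was not tested. Nfkbia, the NF-kB inhibitor, and Btg1, an antiproliferative factor, lay apart and lower at 2040 and 7901 in 0.172% tumours, against 2791 and 9630 in 0.86% tumours. So did Wwtr1, the TAZ coactivator of the Hippo pathway, at 7347 ± 375 in 0.172% and 9656 ± 1378 in 0.86% tumours, and Amotl1, an angiomotin that binds the same pathway, at 4677 ± 299 in 0.172% and 5789 ± 213 in 0.86% tumours. The last 4 were chosen after their values were seen.

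Mitochondrial genes mostly had positive estimates. All 13 protein-coding genes of the mitochondrial genome had estimates above 0 with a median of 0.39. Of them 7 reached an unadjusted limma p under 0.05, where 6.64% of all expressed genes were higher at that level. mt-Nd2, a complex I subunit, had 39242 to 44012 normalised counts in 0.172% tumours (median 42699), against 19933 to 39870 in 0.86% tumours (median 28690). Of the restricted tumours 5 lay above every 0.86% tumour, and the difference was 0.62 ± 0.16 (limma adjusted p = 0.355). Leaving out 1 tumour at a time kept the median of the 13 between 0.32 and 0.45. mt-Cytb, of complex III, averaged 136947 ± 15718 in 0.172% and 103613 ± 12865 in 0.86% tumours, and mt-Co1, of complex IV, 400861 ± 45229 in 0.172% and 347353 ± 53443 in 0.86% tumours. The mitochondrial genome gave 2.79 ± 0.242% of counts in 0.172% tumours and 2.35 ± 0.439% in 0.86% tumours (exact permutation p = 0.0563, adjusted p = 0.113, two-sided, smallest possible p 0.00216). Tumours 10 and 11 were lowest, at 1.94% and 1.81%, and tumour 9, at 2.99%, was the highest of its diet. These 13 genes are cut from shared transcripts, so they are not independent. The diet median was also positive in Balb/c hosts, at 0.38.

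Nuclear genes for mitochondrial proteins pointed the same way by less. Of 32 nuclear respiratory chain subunits 29 had estimates above 0, with a median of 0.10 and 5 higher at unadjusted p under 0.05. Ndufa4, a complex IV subunit, had 3518 to 5470 normalised counts in 0.172% tumours and 2619 to 3518 in 0.86% tumours, groups that met without crossing, and Atp5c1, of ATP synthase, averaged 9889 ± 793 in 0.172% and 8665 ± 442 in 0.86% tumours. The proteins of the mitochondrial ribosome, a list added after its values were seen, had estimates above 0 for 72 of 76 expressed genes and a median of 0.13. In that list 21 genes (27.6%) were higher at unadjusted p under 0.05, where 6.64% of all expressed genes were. In 9 (11.8%) every 0.172% tumour was higher, where 1.22% of all expressed genes were, and none was called. Mrpl42 had 2374 to 3081 in 0.172% tumours and 2066 to 2249 in 0.86% tumours, a difference of 0.30 ± 0.08 (limma adjusted p = 0.328). Mrpl12, a large-subunit protein that also binds mitochondrial RNA polymerase, averaged 2668 ± 274 in 0.172% and 2098 ± 120 in 0.86% tumours, and Mrps15, of the small subunit, 1409 ± 111 in 0.172% and 1160 ± 45.4 in 0.86% tumours.

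The mean of the 78 mitoribosomal genes was 10.17 ± 0.10 in 0.172% and 10.04 ± 0.03 in 0.86% tumours on the deposited log2 scale. Tumours 3, 4 and 5 were highest, at 10.28, 10.27 and 10.22, and tumour 1, at 10.04, lay within the 0.86% range of 9.99 to 10.08. Leaving out any 1 tumour kept the list median between 0.10 and 0.16, and quantile normalisation gave 0.13. Other mitochondrial genes that lay apart and higher, chosen after their values were seen, were Phb, an inner-membrane scaffold, at 5599 ± 401 in 0.172% and 4590 ± 171 in 0.86% tumours, Prdx3, the mitochondrial peroxiredoxin, at 3671 ± 446 in 0.172% and 2911 ± 159 in 0.86% tumours, Trap1, the mitochondrial HSP90, at 4018 ± 223 in 0.172% and 3488 ± 176 in 0.86% tumours, and Dhodh, the pyrimidine enzyme of the inner membrane, at 672 ± 65.6 in 0.172% and 520 ± 47.9 in 0.86% tumours. Cluh, which binds mRNAs for mitochondrial proteins, averaged 3452 ± 168 in 0.172% and 3074 ± 108 in 0.86% tumours.

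**Figure D3:**
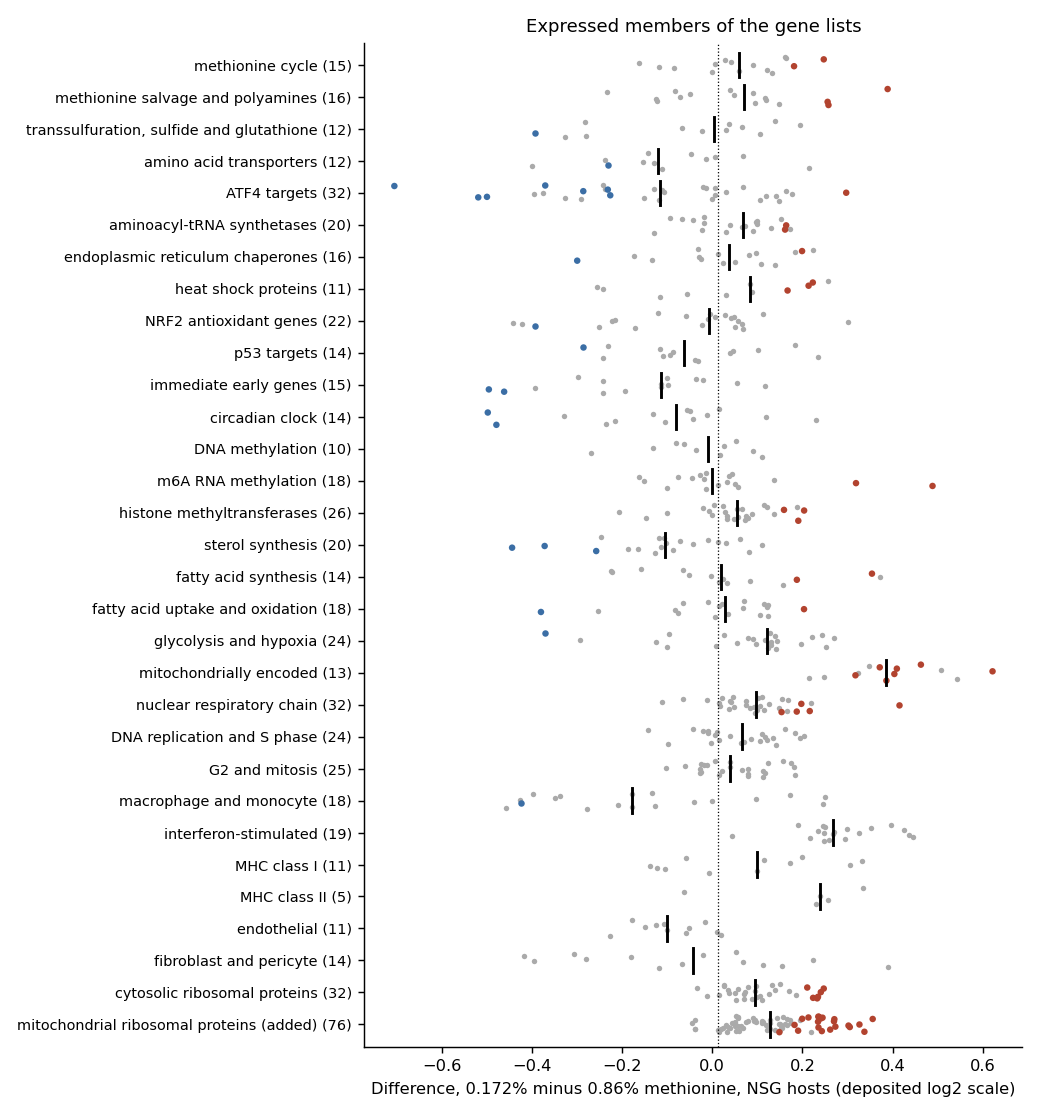
Difference between 0.172% and 0.86% methionine for each expressed member of the lists with at least 5 expressed members (number in brackets). Black bars are list medians and the dotted line the median of all expressed genes (0.01). Red or blue points are members with an unadjusted limma p under 0.05. The mitochondrial lists lie to the right and ATF4 targets to the left, but they are not alone. Interferon-stimulated genes (0.27), MHC class II (0.24) and glycolysis and hypoxia (0.12) also lie to the right. Macrophage markers (-0.18) and amino acid transporters (-0.12) also lie to the left.

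Of the growth lists, none had a called member. Cytosolic ribosomal proteins had 30 of 32 estimates above 0 and a median of 0.10. That median was 0.04 without tumour 2, 0.01 after quantile normalisation and 0.03 without tumours 2 and 12. Of the 32, 6 were higher at unadjusted limma p under 0.05, where 6.64% of all expressed genes were. The share of counts from ribosomal protein genes was 7.85 ± 0.817% in 0.172% and 7.54 ± 0.332% in 0.86% tumours (exact permutation p = 0.532, adjusted p = 0.710). Tumour 2 held the highest share, 9.47%. Factors of ribosome assembly that lay apart and higher, chosen after their values were seen, included Dkc1, the pseudouridine synthase, at 4037 ± 266 in 0.172% and 3317 ± 139 in 0.86% tumours, and Ruvbl2, an assembly helicase, at 5570 ± 481 in 0.172% and 4473 ± 313 in 0.86% tumours. S phase genes had 17 of 24 and mitosis genes 17 of 25 estimates above 0, with medians of 0.07 for S phase and 0.04 for mitosis and 0 at unadjusted p under 0.05. Leaving out 1 tumour moved the S phase median between 0.02 (without tumour 12) and 0.12 (without tumour 2), and that of mitosis between -0.0007 (without tumour 9) and 0.10 (without tumour 7). The proliferation marker Mki67 averaged 12076 ± 3184 in 0.172% and 12261 ± 3219 in 0.86% tumours, and the cyclin Ccnb1 5598 ± 357 in 0.172% and 5720 ± 631 in 0.86% tumours. Glycolysis and hypoxia genes had 19 of 24 estimates above 0 and a median of 0.12, which was 0.06 without tumour 8 and 0.19 without tumour 10, and Vegfa, the vessel growth factor, averaged 5447 ± 1143 in 0.172% and 6957 ± 840 in 0.86% tumours.

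No marker of host cells was called. In bulk RNA, fewer cells of a type and less RNA per cell cannot be told apart. Macrophage markers had 14 of 18 expressed estimates below 0 and a median of -0.18, and their summed level was 42704 to 98581 in 0.172% tumours and 51308 to 101247 in 0.86% tumours, highest in tumours 2 and 12. The median was -0.30 without tumour 2 and -0.08 without tumour 12. Cd14, a coreceptor for bacterial lipopolysaccharide, averaged 1798 ± 506 in 0.172% and 2410 ± 577 in 0.86% tumours, and Csf1r, the receptor macrophages live by, 2368 ± 745 in 0.172% and 3182 ± 961 in 0.86% tumours. Endothelial markers had 9 of 11 estimates below 0 and a median of -0.10, with summed levels of 5352 to 8904 in 0.172% and 5691 to 8879 in 0.86% tumours. The endothelial median was -0.02 without tumour 9 and -0.17 without tumour 8. Fibroblast and pericyte markers had a median of -0.04, which ran from -0.15 (without tumour 6) to 0.08 (without tumour 9), and summed levels of 88330 to 188030 in 0.172% tumours and 93214 to 152107 in 0.86% tumours.

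Defining genes of lymphocytes were mostly at or near 0, while their marker lists as a whole were not. The summed level of 18 T cell markers was 292 to 1511 normalised counts in 0.172% tumours and 447 to 1170 in 0.86% tumours, and that of 12 B and plasma cell markers 517 to 931 in 0.172% and 614 to 941 in 0.86% tumours. Each list had 1 expressed member, Thy1, a surface protein that fibroblasts also carry, and Blnk, an adaptor that macrophages also carry, and neither was called. Cd3e averaged 0.152 normalised counts in 0.172% tumours and 0 in 0.86% tumours, and the NK and effector genes Ncr1, Tbx21, Ifng and Xcl1 had 0 counts in all 12. Interferon-stimulated genes had estimates above 0 for 19 of 19 expressed members, with a median of 0.27 and 0 at unadjusted p under 0.05. Leaving out 1 tumour at a time gave medians of 0.17 (without tumour 1) to 0.44 (without tumour 2). Ifit1, which binds foreign RNA ends, had 926 to 2741 in 0.172% tumours (median 2298), against 1087 to 1656 in 0.86% tumours (median 1350). The list mean was 10.94, 10.56, 10.91 and 10.86 in tumours 1, 3, 5 and 6, 9.66 and 9.960 in tumours 2 and 4, and 9.963 to 10.48 in 0.86% tumours. Tumours 1, 3, 5 and 6 thus lay above every 0.86% tumour, and tumours 2 and 4 below every one. Antigen presentation lists had medians of 0.10 for MHC class I and 0.24 for MHC class II, which were 0.03 for MHC class I without tumour 8 and 0.19 without tumour 4, and for MHC class II 0.03 without tumour 12 and 0.51 without tumour 9.

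Adipocyte markers were high in 4 libraries. Adipoq, the adipocyte hormone, had 190 normalised counts in tumour 3, of the 0.172% group, and 169, 65.6 and 342 in tumours 7, 9 and 10 of the 0.86% group, against at most 12.5 in the others. The summed level of 14 adipocyte markers was 2142 to 5446 in 0.172% and 2453 to 8562 in 0.86% tumours. Car3, an adipocyte and muscle carbonic anhydrase, averaged 121 ± 205 in 0.172% and 421 ± 567 in 0.86% tumours. Pnpla2, a fat lipase, averaged 1415 ± 185 in 0.172% and 1738 ± 169 in 0.86% tumours and was the 1 expressed adipocyte marker of 3 at unadjusted p under 0.05. Epcam was highest in the same tumours 7, 9 and 10, at 77.0, 38.9 and 37.1. The skin keratinocyte list was highest in them by its mean deposited log2 value, at 5.17, 5.14 and 5.30. By summed normalised counts, tumour 6 of the 0.172% group, at 261, lay above tumours 7 and 9, at 245 and 244. Red blood cell genes had a median of -0.48 (-0.33 without tumour 4), with Hbb-bs, a globin, at 1581 ± 603 in 0.172% and 2218 ± 648 in 0.86% tumours. The part of these cells in the differences of other genes was not tested.

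**Figure D4:**
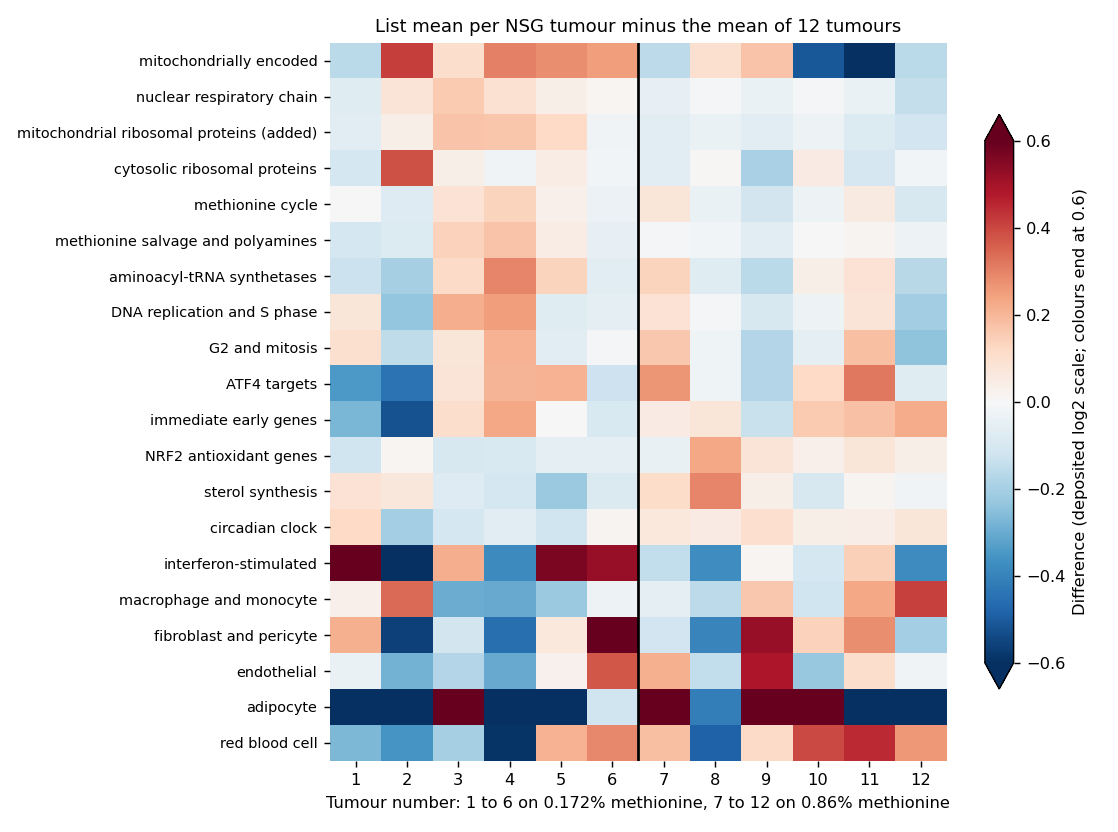
Mean of each gene list in each NSG tumour minus its mean over 12 tumours, on the deposited log2 scale; tumours 1 to 6, on 0.172% methionine, stand left of the line and 7 to 12, on 0.86%, right of it. Interferon, adipocyte and fibroblast lists vary within both diets, and mitochondrially encoded genes are lowest in tumours 10 and 11.

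Tumours also differed along chromosomes. In windows of 10 Mb with at least 20 expressed genes, the median gene of tumour 2 stood 0.97 above the other tumours on the deposited log2 scale at 110 to 120 Mb of chromosome 3 (22 genes), and 0.55 to 0.65 above them from there to 160 Mb. At 60 to 70 Mb of chromosome 5 (22 genes) it stood 0.57 below. Tumour 12 stood 0.20 above the others over all 413 expressed genes of chromosome 14 and 0.16 below over 609 genes of chromosome 8, and tumour 3 stood 0.18 below over 679 genes of chromosome 1. Whether these are changes of copy number in the grafted cells was not tested. Genes that lay apart between diets were most frequent on chromosome 11, which was picked after the values of all chromosomes were seen. There 29 of 887 expressed genes were higher (3.27%, against 1.22% over all chromosomes) and 0 lower, and the median difference was 0.06. Chromosome 19 had a larger median, 0.07, and chromosomes 3, 6 and 8 had 0.04 each. Dhrs13, Eif4a1, Phb and Mrpl12 lie on chromosome 11.

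Whether the diet difference depended on the host was tested as a difference of differences, NSG minus Balb/c, with 6 restricted and 4 high methionine tumours on the Balb/c side. Limma called 0 of 38019 genes (0%), with 2447 at unadjusted p under 0.05 (6.44%), and the smallest adjusted p was 0.0987. The 178 genes that lay apart by diet in NSG hosts were chosen without the Balb/c tumours. Of the 178, 79 had the same sign (44.4%), against 47.1% of all expressed genes. Across the expressed genes the diet differences of the hosts correlated at -0.08, a description over genes that share 1 fit. The lowest p among the genes named here belonged to Ttc33 and to Slc22a23, an organic ion transporter chosen after its values were seen. Slc22a23 differed by -0.50 in NSG hosts and by 1.05 in Balb/c hosts, and Ttc33 by -0.32 in NSG and by 0.40 in Balb/c hosts. Pcdh18 differed by 0.75 in NSG and by -0.60 in Balb/c hosts, Arntl by -0.48 in NSG and by 0.996 in Balb/c hosts, and Igf2bp1 by 0.49 in NSG and by -0.62 in Balb/c hosts. Signs were opposite in every gene named in this paragraph, while 79 of the 178 above had the same sign. Slc22a23 and Ttc33 are named for a low p of the difference between hosts, which favours opposite signs. The shared pattern of the named genes thus follows in part from their choice. On the Balb/c side, library 19 correlated at 0.928 to 0.948 with libraries 20, 21 and 22 of its diet. Library 17 correlated at 0.932 to 0.965 with the others of its diet.

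Some lists had medians of opposite sign in the 2 hosts and others of the same sign, where 47.1% of all expressed genes had the same sign. ATF4 targets had -0.12 in NSG and 0.19 in Balb/c hosts, sterol synthesis -0.11 in NSG and 0.20 in Balb/c hosts, interferon-stimulated genes 0.27 in NSG and -0.33 in Balb/c hosts, and MHC class II 0.24 in NSG and -1.12 in Balb/c hosts. Of those with the same sign, macrophage markers had -0.18 in NSG and -0.53 in Balb/c hosts, and endothelial markers -0.10 in NSG and -0.49 in Balb/c hosts. Red blood cell genes had -0.48 in NSG and -0.64 in Balb/c hosts, and the circadian clock -0.08 in NSG and -0.13 in Balb/c hosts. The list differences themselves were not tested. Trib3 differed by -0.70 in NSG and 0.35 in Balb/c hosts, with an unadjusted limma p of 0.0068 for the difference between hosts and an adjusted p of 0.607. The mitochondrial ribosome list had 0.13 in NSG and 0.04 in Balb/c hosts, and nuclear respiratory subunits 0.10 in NSG and -0.05 in Balb/c hosts, while the mitochondrial genome had 0.39 in NSG and 0.38 in Balb/c hosts.

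**Figure D5:**
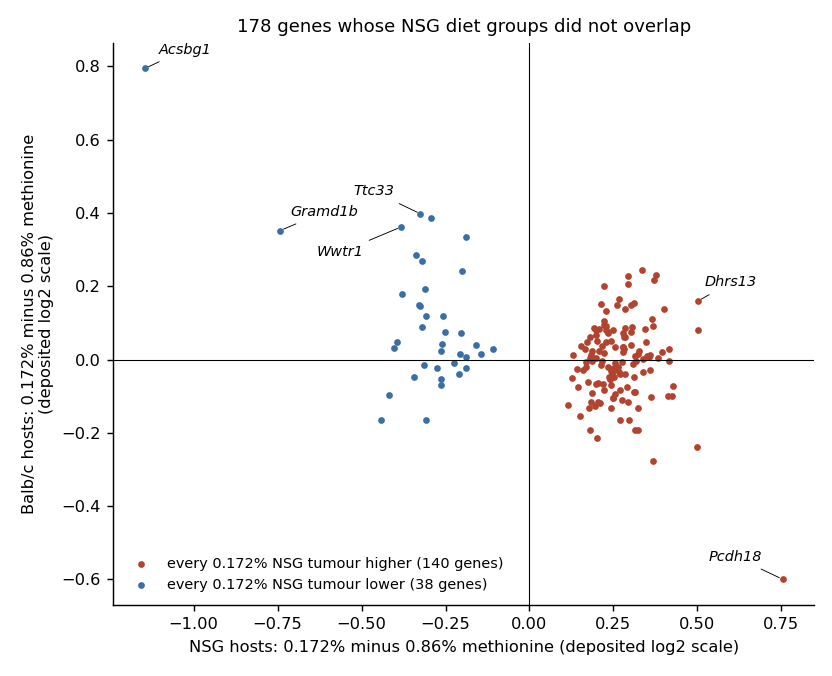
Diet difference (0.172% minus 0.86% methionine, deposited log2 scale) in NSG hosts on the x axis and in Balb/c hosts on the y axis, for the 178 genes whose NSG diet groups did not overlap, which fixes the empty band around 0 on the x axis. Points lie on both sides of 0 in Balb/c hosts, and 79 of 178 have the same sign in both.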

How the data were processed

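RNA was measured in 24 graft libraries. STAR, featureCounts, DESeq2 and mm10 are named in the submitters' processing notes (versions and annotation: not given in the sources used here). Labels disagree on poly(A) or stranded ribosomal-depletion kits, so strand is unsettled and overlapping genes are uncertain. The deposited log2 values, variance-stabilised by the authors as the values show, have a floor of 4.07 for a count of 0 and understate changes of low genes. Inverting them gave whole counts within 0.01 for 100% of values above the floor. Normalised counts are these divided by the recovered size factors. Of 55228 lines, 26 with dates in place of names were left out.

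Deposited log2 values of 22 tumours were fitted with limma 3.58.1 in R 4.3.3, as means of the 4 groups with eBayes set to trend and robust (statmod 1.5.0) and Benjamini-Hochberg adjustment over the 38019 genes with any count. Balb/c libraries 19 and 23, and 20 and 24, nearly identical, were averaged and counted as 1 tumour each. The labels do not say that libraries came from separate mice, so p-values measure spread between libraries. Limma was also run on simulated data, whose outcome is not given here. Changes were set only in genes above a count threshold, so the run does not show how well changes in genes with few counts are found. NSG libraries held 35937162 to 51729669 counts. Single summaries used two-sided exact permutation over all splits of the 12 tumours.

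Genes named are those called, the 8 highest and 8 lowest moderated t among expressed genes (no predicted models or pseudogenes), a panel of 42, and up to 3 members of each of 42 lists, not all of which are printed; others are marked as chosen after seeing values, as were Vil1, Krt8, Krt18, Krt20, Cdx1, Gss, Ezh2, Dnmt1, Psat1, Eif4a-ps4, Cd3e, Mrpl42, Mrpl12, Mrps15 and Cluh. Members and lists were chosen with earlier results of these data known. Positions are from GENCODE M21 on mm10. Alternatives were a stricter filter (5 in 6 tumours), log2(normalised count + 10), median centring, quantile normalisation, library weights, plain eBayes, NSG tumours only, all 24 libraries, and leaving out each tumour. A voom fit of recovered counts, leaving out tumours 2 and 12 together, and the mitochondrial ribosome list were added after seeing the data.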

Additional observations from a re-analysis of the deposited data

Results flagged for a closer look

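Of 244 groups of 6 tumours, 25 had 1 tumour whose gap to its nearest neighbour was more than 0.625 of the range of its group, where chance gives about 1 in 20 groups. The genes share tumours, so these groups are not independent. Tumour 1, on 0.172% methionine, stood apart within its diet with a ratio of 0.639 for Hsd17b7. Tumour 2, on 0.172% methionine, stood apart within its diet with a ratio of 0.651 for Psmg1, 0.705 for Pcdh18, 0.717 for Cbs, 0.783 for Gclm, 0.640 for Acsl4, 0.747 for Cd14 and 0.760 for share of counts from ribosomal protein genes. Tumour 3, on 0.172% methionine, stood apart within its diet with a ratio of 0.760 for Epcam, 0.627 for Hikeshi, 0.694 for Igf2bp1, 0.733 for Hspa8, 0.777 for Nfkbia and 0.675 for Adipoq. Tumour 5, on 0.172% methionine, stood apart within its diet with a ratio of 0.677 for Per1 and 1.0 for Cd3e. Tumour 6, on 0.172% methionine, stood apart within its diet with a ratio of 0.674 for Dkc1. Tumour 8, on 0.86% methionine, stood apart within its diet with a ratio of 0.765 for Atp5c1 and 0.690 for Hbb-bs. Tumour 12, on 0.86% methionine, stood apart within its diet with a ratio of 0.672 for Cbs, 0.729 for Slc43a2, 0.730 for Farsa, 0.794 for Btg1, 0.657 for Csf1r and 0.739 for genes detected. Cd3e rests on 1 tumour with a count above 0. No cause was tested.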

How the results depend on the processing

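Genes called for diet numbered 2 with centring, weights or plain eBayes, and 1 with the stricter filter, log2(normalised count + 10), 24 libraries or voom. They numbered 0 with quantile normalisation or without tumours 2 and 12, and 10 (4 higher, 6 lower) in the fit of NSG tumours alone. With 1 tumour left out they numbered 0 to 2, and 2 only without tumour 9, 11, 19, 21 or 22. The genes called were not always Gm34719 and Acox2. Gm14525, a predicted gene chosen after its values were seen, had a limma adjusted p from 0.0060 to 0.553 with 1 NSG tumour left out. Genes called for the difference between hosts numbered 1 with the stricter filter, weights or plain eBayes, 2 with 24 libraries, and 0 to 3 with 1 tumour left out, 3 without tumour 19. Non-overlapping genes numbered 215 higher and 115 lower without tumours 2 and 12, 58 lower with quantile normalisation, and 150 to 346 higher and 44 to 104 lower with 1 tumour fewer, as fewer tumours must overlap less. With 1 tumour left out, the mitochondrial share differed by 0.334 to 0.571 percentage points (adjusted exact permutation p = 0.0433 without tumour 9), the ribosomal protein share by -0.0140 (without tumour 2) to 0.428, genes detected by -666 to -403.9, and assigned counts by -283736 (without tumour 3) and -143177 (without tumour 9) to 2874765. The difference of Hsp90ab1 was -0.0512 after quantile normalisation. Causes were not tested. No paired analysis was possible because the tumour numbers are not shared between groups. Genes with few counts, such as Acox2, are limited by depth.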
